A study of Mus musculus with 4 samples.

Results

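Interferon response and antigen presentation genes form the set described here: components of the MHC class I and class II pathways, transcription factors of interferon signalling, type I interferon targets, cytosolic RNA sensors and interferon-gamma induced GTPases. The members were a list of 39 gene symbols grouped by function. The rule that chose them used no measured value, but the list was drawn up with earlier results of these data known. A probe named for the gene, or for one of its older symbols, was found for 31 of them, with 32 probes, out of 14039 named genes with a value on all 4 arrays. All 31 had a value on every array, so none was lost to a filter on low values. H2-K1, H2-D1, H2-Ab1, H2-Eb1, Isg15, Xaf1, Gbp3 and Igtp had no probe named for them in the annotation used and were not analysed here.

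The samples were left ventricles of male C57BL/6 mice, operated on at 10 weeks of age and taken 4 weeks later, at 14 weeks. The 4 groups were STIM1KO mice after transverse aortic constriction (TAC), STIM1KO mice after a sham operation, WT mice after TAC and WT mice after sham. TAC narrows the aortic arch with a suture tied over a wire of 0.3 mm and loads the ventricle with pressure; the sham operation left out the banding. Each group was 1 array, so no comparison has a test or an error between animals, and every difference compares arrays. Mean heart weight over body weight, listed without a unit, was 4.9 in STIM1KO TAC, 4.5 in STIM1KO sham, 6.7 in WT TAC and 4.1 in WT sham. The labels do not say how many mice an array stands for, in which cells STIM1 is missing or how the allele was made. STIM1 senses calcium in the endoplasmic reticulum and gates Orai channels, and the series crosses its loss with pressure overload.

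Interferons are cytokines that induce antiviral and antigen presenting genes. Type I interferons signal through IFNAR1 and IFNAR2 to a complex that holds STAT2 and IRF9 and binds the interferon-stimulated response element. Interferon gamma signals through its own receptor, acts on genes with the gamma-activated site and induces MHC class II through the coactivator CIITA. MHC class I with beta 2-microglobulin shows peptides from the cytosol on nearly all cells, and class II is made mainly by macrophages, dendritic cells and B cells. In the heart these cells lie between the cardiomyocytes, so a signal from whole ventricle is a mixture, and fewer cells of a type cannot be told apart from less RNA per cell.

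Promoters were searched for motifs of the factors through which interferons act. In windows from 250 bases before to 50 after the start of a gene, read from RefSeq on GRCm38.p6, 22 of the 31 genes had an entry. Tap2, Cd74, Ciita, Usp18, Mx1, Mx2, Dhx58, Gbp4 and Iigp1 were without one. The response element core was searched on both strands as a pair of GAAA repeats with 2 bases of any kind between them, and the gamma-activated site as TTCNNNGAA, which reads the same on both strands. Matches of the 2 motifs could overlap and were counted for each. The core was found for 11 of the 22 genes (50%), against 3.99% of 27025 genes in the promoter table. These 11 were B2m, Bst2, Ddx58, Gbp2, Ifih1, Ifit1, Ifit3, Ifitm3, Irgm1, Rsad2 and Stat2. The gamma-activated site was found for 6 of 22 (27.3%), against 9.55% of all genes. The 250 bases before the start are shown for the 2 members that reached 2-fold in any comparison, Trim25 and Ifit1, for B2m of the class I pathway, and for Rsad2 among the targets that were lower after TAC. Capitals mark the core.
Trim25, chr11:88999153-88999402, plus strand: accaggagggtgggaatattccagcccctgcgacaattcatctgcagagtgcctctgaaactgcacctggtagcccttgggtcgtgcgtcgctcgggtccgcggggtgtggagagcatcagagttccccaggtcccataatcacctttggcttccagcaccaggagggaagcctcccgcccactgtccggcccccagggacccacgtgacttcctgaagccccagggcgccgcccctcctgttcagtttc
Ifit1, chr19:34640639-34640888, plus strand: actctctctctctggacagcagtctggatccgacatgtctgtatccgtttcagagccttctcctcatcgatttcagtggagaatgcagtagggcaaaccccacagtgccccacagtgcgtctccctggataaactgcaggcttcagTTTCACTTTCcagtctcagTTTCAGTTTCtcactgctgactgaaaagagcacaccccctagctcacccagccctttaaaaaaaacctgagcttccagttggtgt
B2m, chr2:122147437-122147686, plus strand: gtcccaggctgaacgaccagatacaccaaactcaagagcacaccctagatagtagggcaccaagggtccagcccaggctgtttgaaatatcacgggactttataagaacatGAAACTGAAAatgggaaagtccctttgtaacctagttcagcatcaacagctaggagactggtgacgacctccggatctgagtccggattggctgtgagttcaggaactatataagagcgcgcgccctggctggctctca
Rsad2, chr12:26456453-26456702, minus strand: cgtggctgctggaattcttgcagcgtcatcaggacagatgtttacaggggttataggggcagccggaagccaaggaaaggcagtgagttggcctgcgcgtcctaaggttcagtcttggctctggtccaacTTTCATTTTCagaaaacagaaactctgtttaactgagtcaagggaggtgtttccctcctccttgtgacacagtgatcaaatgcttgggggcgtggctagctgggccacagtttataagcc
Ifit1 held 2 copies of the core, starting 104 and 85 bases before the start, B2m held 1 at 139 bases and Rsad2 1 at 120 bases. Trim25 held neither motif in its window, which says only that these letters are absent there. A match is a description of sequence, not of binding.

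Levels below are quantile-normalized intensities in the arbitrary units of the deposited table, differences are on the log2 scale, and 2-fold means a log2 difference of at least 1 either way. Intensities of different probes are not comparable, so genes are compared only with themselves. Few members reached 2-fold. The counts were 0 of 31 in STIM1KO TAC against STIM1KO sham, called the STIM1KO response below, where 5.81% of all 14039 genes did, and 1 of 31 (3.23%) in WT TAC against WT sham, the WT response, where 2.08% did. They were 1 of 31 (3.23%) in STIM1KO TAC against WT TAC, where 5.38% of all genes did, and 0 of 31 in STIM1KO sham against WT sham, where 2.67% did. In the difference of responses, the STIM1KO difference after TAC minus the WT one, 2 of 31 did (6.45%), against 8.59% of all genes. At 1.5-fold the STIM1KO response held 5 members (16.1%), against 22.9% of all genes, and the WT response 1 (3.23%), against 9.71%. Between the TAC arrays 4 members reached it (12.9%), against 22.8% of all genes, and between the sham arrays 2 (6.45%), against 11.7%. In the difference of responses 4 did (12.9%), against 25.7%. Some of these counts at 1.5-fold changed under other settings. With median centring the STIM1KO response held 6 members, and 3 were left between the TAC arrays. An offset of 5.49 intensity units, the 25th percentile of the deposited values, was also added before log2. It left 2 members in the STIM1KO response, 2 between the TAC arrays and 1 between the sham arrays. The difference of responses kept 4. Genes at or above the median level hold 21 members. Of these, 3 reached 1.5-fold in the STIM1KO response, 3 between the TAC arrays, 1 between the sham arrays and 2 in the difference of responses. At or above the 75th percentile level, with 8 members, 1 was left between the sham arrays and 0 in each of the other comparisons. The filters leave fewer members, so a smaller count there need not be a smaller share. The share of all genes at 1.5-fold was not computed for these settings. At 2-fold, the share of all genes in the STIM1KO response was 1.11% with the offset and 1.85% with the median-level filter. With quantile normalization and no filter, shares of called members were near or below those of all genes. The distance between a member's highest and lowest array had a median of 0.44 log2, against 0.55 over all genes, and for 15 of 31 members it was wider than the median of the 500 genes nearest in level. Apart from Gbp4, each of these genes rested on 1 probe.

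**Figure D1:**
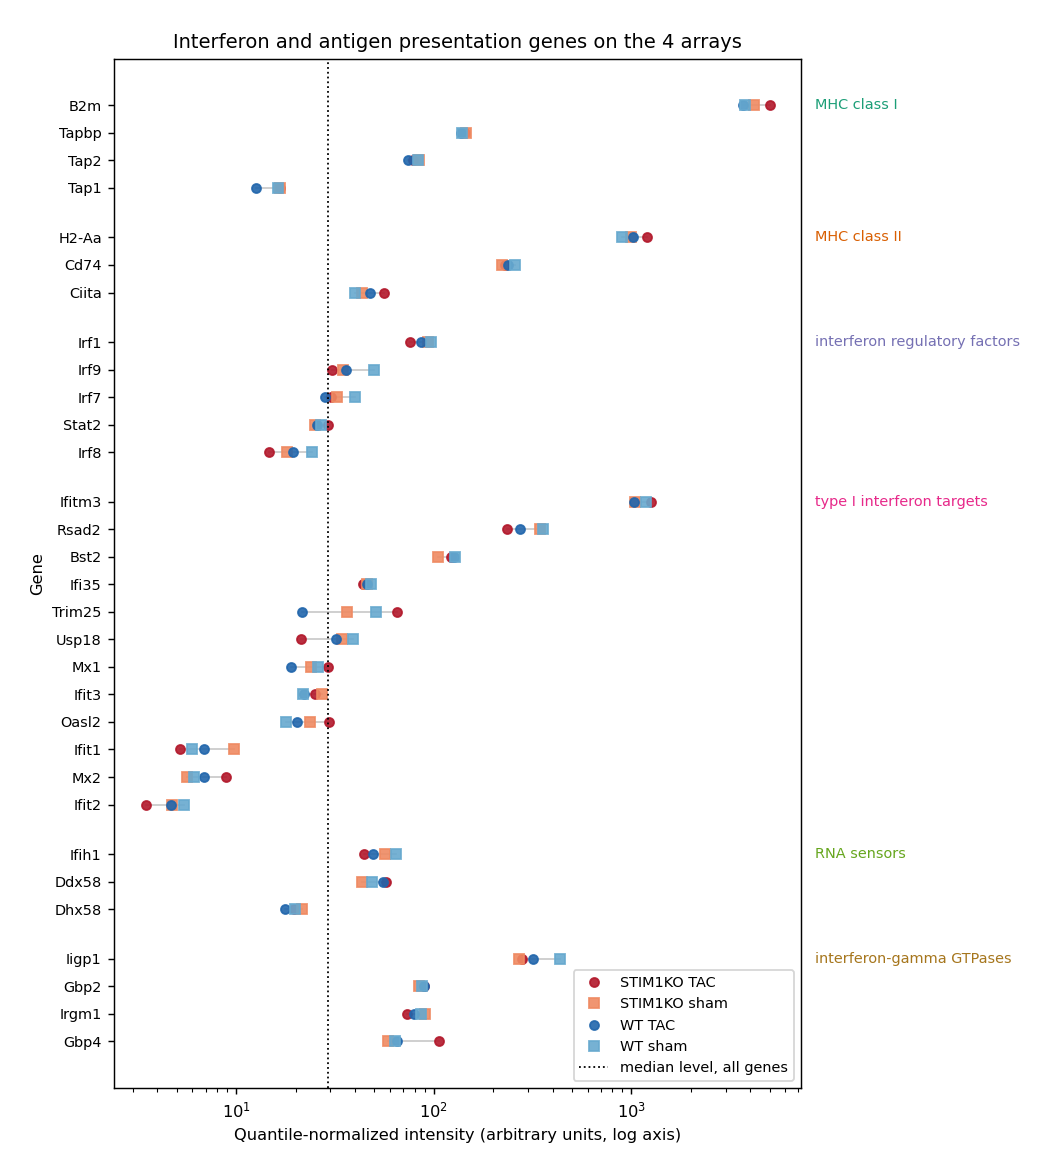
Quantile-normalized intensity (arbitrary units, log axis) of the 31 genes on each of the 4 arrays, grouped by role, with the STIM1KO arrays in red and orange and the WT arrays in blue. The symbols of most genes lie close together, Trim25 spreads most widely, with 65.1 on STIM1KO TAC and 21.5 on WT TAC, and the dotted line is the median level of all genes, 29.3.

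MHC class I genes differed little between the arrays. B2m, the beta 2-microglobulin light chain, was at 5005 on STIM1KO TAC, 4190 on STIM1KO sham, 3683 on WT TAC and 3778 on WT sham. The STIM1KO TAC array was the highest, 0.26 above STIM1KO sham and 0.44 above WT TAC. The WT response was -0.04, which turned to 0.03 with median centring. Tap1, a subunit of the peptide transporter, was at 16.7 on both STIM1KO arrays, against 12.6 on WT TAC and 16.2 on WT sham. It thus differed mainly on WT TAC, 0.36 below WT sham and 0.40 below STIM1KO TAC. Its partner Tap2 ranged from 74.4 to 83.8, and Tapbp, which encodes tapasin and tethers class I to the transporter, from 136.8 to 145.8, with a whole range of 0.09 log2. All 4 genes were above 0 in STIM1KO TAC against WT TAC, with a median of 0.24, and all 4 had their lowest value on WT TAC. With the values as deposited, B2m and Tapbp were lowest on WT sham instead.

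MHC class II genes did not move as a block. H2-Aa, the alpha chain of the I-A molecule, was at 1201 on STIM1KO TAC, 999.3 on STIM1KO sham, 1015 on WT TAC and 896.4 on WT sham. Ciita, the class II transactivator, was at 56.1 on STIM1KO TAC, 43.5 on STIM1KO sham, 47.5 on WT TAC and 40.0 on WT sham. Both were higher after TAC in each genotype, H2-Aa by 0.27 in STIM1KO and 0.18 in WT, and Ciita by 0.37 in STIM1KO and 0.25 in WT. Cd74, the invariant chain that escorts class II through the cell, was at 228.6 on STIM1KO TAC, 220.5 on STIM1KO sham, 236.3 on WT TAC and 258.0 on WT sham. Its difference after TAC was 0.05 in STIM1KO, which turned to -0.06 with median centring, and -0.13 in WT. The median of the 3 genes was 0.27 in the STIM1KO response, against 0.01 over all genes, and 0.18 in the WT response, against -0.02 over all genes. Differences of this size were common. Among the 500 genes nearest in level, 49.8% differed more than H2-Aa and 42.8% more than Ciita in the STIM1KO response. In the WT response these shares were 44.2% for H2-Aa and 30.6% for Ciita.

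Markers of the cells that carry class II are given beside these values, and their part in them was not tested. Of 18 macrophage and monocyte markers, 15 had a value throughout (Lyz2, Itgam and Mpeg1 did not), with summed intensities of 3020 on STIM1KO TAC, 2335 on STIM1KO sham, 2776 on WT TAC and 2667 on WT sham. In the STIM1KO response 10 of the 15 were above 0 with a median of 0.51, and in the WT response 8 were, with a median of 0.03. The sums rest mainly on C1qa, C1qb and C1qc, and the markers did not share one order of the arrays. Dendritic cell markers had a value for 5 of 9, all 5 below the median level of all genes, and summed to 87.3 on STIM1KO TAC, 67.2 on STIM1KO sham, 67.8 on WT TAC and 75.2 on WT sham. B cell markers had a value for 6 of 7, with 5 below the median level. They summed to 159.1 on STIM1KO TAC, 158.6 on STIM1KO sham, 128.4 on WT TAC and 152.0 on WT sham, mainly through Cd22. T and NK cell markers had a value for 8 of 12, each below the median level, and their sums lay between 64.7 and 69.6. The 7 cardiomyocyte markers with a value out of 8 summed to between 143161 and 177380, so markers of the labelled tissue were present. None of these markers was listed at 0.

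The transcription factors of the pathway were highest on WT sham in 4 of 5 cases, as were 26.1% of all genes. Irf9, the DNA-binding partner of STAT2, was at 30.5 on STIM1KO TAC, 34.9 on STIM1KO sham, 35.9 on WT TAC and 49.8 on WT sham. Irf7, which amplifies type I interferon production, was at 30.1 on STIM1KO TAC, 32.4 on STIM1KO sham, 28.2 on WT TAC and 40.0 on WT sham. Irf8, a factor of myeloid cells, was at 14.6 on STIM1KO TAC, 18.1 on STIM1KO sham, 19.5 on WT TAC and 24.1 on WT sham. In each of these 3 genes WT sham stood above the other arrays.

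Irf1, a mediator of the interferon gamma response, showed the same top array with a narrower range, from 75.9 on STIM1KO TAC to 96.6 on WT sham. Stat2 differed, with its highest value, 29.3, on STIM1KO TAC and its lowest, 25.1, on STIM1KO sham. In the WT response each of the 5 was below 0, with a median of -0.30, led by Irf7 (-0.51) and Irf9 (-0.47). In STIM1KO sham against WT sham all 5 were again below 0, with a median of -0.30, led by Irf9 (-0.51) and Irf8 (-0.41). These comparisons share the WT sham array. In those without that array the medians were -0.19 in the STIM1KO response, with 4 of 5 below 0, and -0.18 between the TAC arrays, with 3 of 5 below 0. All of these differences were under 1.5-fold in each comparison. In the WT response, 5.8% of the 500 genes nearest in level differed more than Irf7 and 6.4% more than Irf9. These shares were 32.4% for Irf8, 46.8% for Irf1 and 78% for Stat2. Cell type markers are given beside these factors. The 9 fibroblast markers, all with a value, summed to 2824 on STIM1KO TAC, 3631 on STIM1KO sham, 4225 on WT TAC and 4782 on WT sham. These sums rest mainly on Dcn, at 1433 on STIM1KO TAC, 2406 on STIM1KO sham, 2879 on WT TAC and 3279 on WT sham. The fibroblast markers did not share one order of the arrays, and Col1a2 was highest on STIM1KO TAC. In STIM1KO sham against WT sham 9 of 9 were below 0, and in the WT response 8 of 9. The 13 endothelial markers, all with a value, summed to 3389 on STIM1KO TAC, 3410 on STIM1KO sham, 4440 on WT TAC and 4811 on WT sham, with 12 of 13 below 0 in STIM1KO sham against WT sham and 8 of 13 in the WT response. Of the 6 B cell markers, 5 were below 0 between the sham arrays and 6 in the WT response. Both of these comparisons use WT sham. In the STIM1KO response 4 of the 6 were above 0 (median 0.22), as were 4 between the TAC arrays (median 0.52). Cd79a and Cd79b were below 0 in both, and Pax5 and Blk were dim probes, between 1.48 and 3.68. Fibroblast medians were -0.02 in the STIM1KO response and -0.12 between the TAC arrays, and endothelial medians -0.40 and -0.57. Of the 15 macrophage markers, 12 were below 0 between the sham arrays, but 10 were above 0 in the STIM1KO response. Between the sham arrays, 6 of 8 T and NK cell, 3 of 5 neutrophil and 5 of 7 cardiomyocyte markers were above 0. Of the 5 dendritic cell markers, 2 were above and 3 below 0 there. The part of these markers in the values of the transcription factors was not tested.

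Type I interferon targets moved in different directions. Of the 12 with a value, 6 were above and 6 below 0 in the STIM1KO response, with a median of 0.07, and 4 were above and 8 below in the WT response, with a median of -0.14. Between the TAC arrays the split was even again (median 0.07), and between the sham arrays 3 were above and 9 below 0 (median -0.12).

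Trim25, a ubiquitin ligase that activates the RNA sensor RIG-I, was the member with the widest range. It was at 65.1 on STIM1KO TAC, 36.4 on STIM1KO sham, 21.5 on WT TAC and 51.3 on WT sham. The order of the operations was opposite in the genotypes, with TAC above sham in STIM1KO and below it in WT. The difference was 0.84 in the STIM1KO response and -1.25 in the WT response (2.38-fold lower). Between the TAC arrays Trim25 was 3.02-fold higher in STIM1KO, at 1.60, and between the sham arrays it differed by -0.49. Among the 500 genes nearest in level, 3.0% reached 2-fold between the TAC arrays and 0.6% in the WT response. The difference of responses was 2.09, or 1.82 with the offset before log2. These values come from 1 probe on 1 array per group. RIG-I itself (Ddx58) and the other sensors did not share this order.

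Ifit1, which binds viral RNA and blocks its translation, was at 5.22 on STIM1KO TAC, 9.72 on STIM1KO sham, 6.91 on WT TAC and 6.01 on WT sham. Only STIM1KO sham stood apart, 0.69 above WT sham and 0.90 above STIM1KO TAC. The difference of responses was -1.10, and fell short of 2-fold with the values as deposited, at -0.999, and with the offset, at -0.62. Ifit1 was a dim probe, with 20.2% of all genes lower in mean level, and 15.6% of the 500 genes nearest in level also reached 2-fold in the difference of responses. Its neighbours in the same gene cluster differed less. Ifit2 lay between 3.48 on STIM1KO TAC and 5.44 on WT sham, and Ifit3 between 21.9 on WT sham and 27.1 on STIM1KO sham. Ifit genes are similar in sequence, and whether these probes tell them apart was not stated.

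Of the 12 targets, 5 (41.7%) were lowest on STIM1KO TAC, Ifit1 among them, against 33.6% of all genes. Usp18, the protease that removes ISG15 and dampens IFNAR signalling, was at 21.2 on STIM1KO TAC, 34.2 on STIM1KO sham, 31.9 on WT TAC and 38.97 on WT sham. Rsad2, which encodes the antiviral enzyme viperin, was at 234.9 on STIM1KO TAC, 345.8 on STIM1KO sham, 274.0 on WT TAC and 355.4 on WT sham. Both were lower after TAC in each genotype. Usp18 differed by -0.69 in the STIM1KO response and -0.29 in the WT response, and Rsad2 by -0.56 in STIM1KO and -0.38 in WT. Ifit2 had the same order after TAC, at -0.45 in STIM1KO and -0.22 in WT. Ifi35 ranged over only 0.14 log2.

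A further 5 of the 12 targets (41.7%) were highest on STIM1KO TAC, Trim25 among them, against 36.8% of all genes. Oasl2, an oligoadenylate synthetase-like protein, was at 29.3 on STIM1KO TAC, 23.8 on STIM1KO sham, 20.2 on WT TAC and 17.9 on WT sham. It was higher on STIM1KO than on WT after both operations, by 0.54 after TAC and 0.41 after sham. Mx1, a dynamin-like antiviral GTPase, was at 29.3 on STIM1KO TAC, 23.8 on STIM1KO sham, 19.0 on WT TAC and 26.0 on WT sham. Like Trim25, Mx1 was lower after TAC in WT, at -0.45, and higher in STIM1KO, at 0.30. Mx2, a dim probe between 5.66 and 8.84, differed by 0.64 in the STIM1KO response and 0.16 in the WT response. Ifitm3, which blocks viral entry at membranes, ranged from 1033 on WT TAC to 1255 on STIM1KO TAC. Bst2, the tetherin that holds virions on the cell, was highest on WT sham instead and ranged from 105.0 to 128.2. Neither differed by more than 0.29 between any 2 arrays.

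RNA sensors went different ways. Ddx58, which encodes RIG-I, was at 57.1 on STIM1KO TAC, 43.1 on STIM1KO sham, 55.4 on WT TAC and 48.6 on WT sham. Ifih1, which encodes the long double-stranded RNA sensor MDA5, was at 44.6 on STIM1KO TAC, 56.6 on STIM1KO sham, 49.2 on WT TAC and 64.3 on WT sham. Ddx58 was higher after TAC in both genotypes, by 0.40 in STIM1KO and 0.19 in WT, and Ifih1 was lower, at -0.34 in STIM1KO and -0.39 in WT. Dhx58, their regulator LGP2, stayed between 17.6 and 21.6.

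Among the interferon-gamma GTPases, Gbp4 stood out on one array. Its brighter probe was at 106.6 on STIM1KO TAC, 58.9 on STIM1KO sham, 64.8 on WT TAC and 63.4 on WT sham. A second probe gave 44.9 on STIM1KO TAC, 30.3 on STIM1KO sham, 33.5 on WT TAC and 29.4 on WT sham. STIM1KO TAC was the highest array by both. The STIM1KO response was 0.86 by the brighter probe and 0.57 by the dimmer, the difference between the TAC arrays 0.72 and 0.42, and the WT response 0.03 and 0.19. The dimmer probe is annotated Gbp4, a name that the gene table also lists as an older symbol of Gbp3, so it may stand for either of these guanylate-binding proteins.

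Iigp1, an immunity-related GTPase of the vacuoles that hold parasites, was at 280.4 on STIM1KO TAC, 269.8 on STIM1KO sham, 316.3 on WT TAC and 433.0 on WT sham. Here WT sham was the array apart, and the others were 0.45 to 0.68 below it. Gbp2, another guanylate-binding protein, was flat, between 83.8 and 89.4, and Irgm1, a regulator of the same GTPases, lay between 72.8 on STIM1KO TAC and 90.0 on STIM1KO sham. The median of the 4 genes was 0.07 in the STIM1KO response, which turned to -0.002 with median centring, and -0.05 in the WT response.

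**Figure D2:**
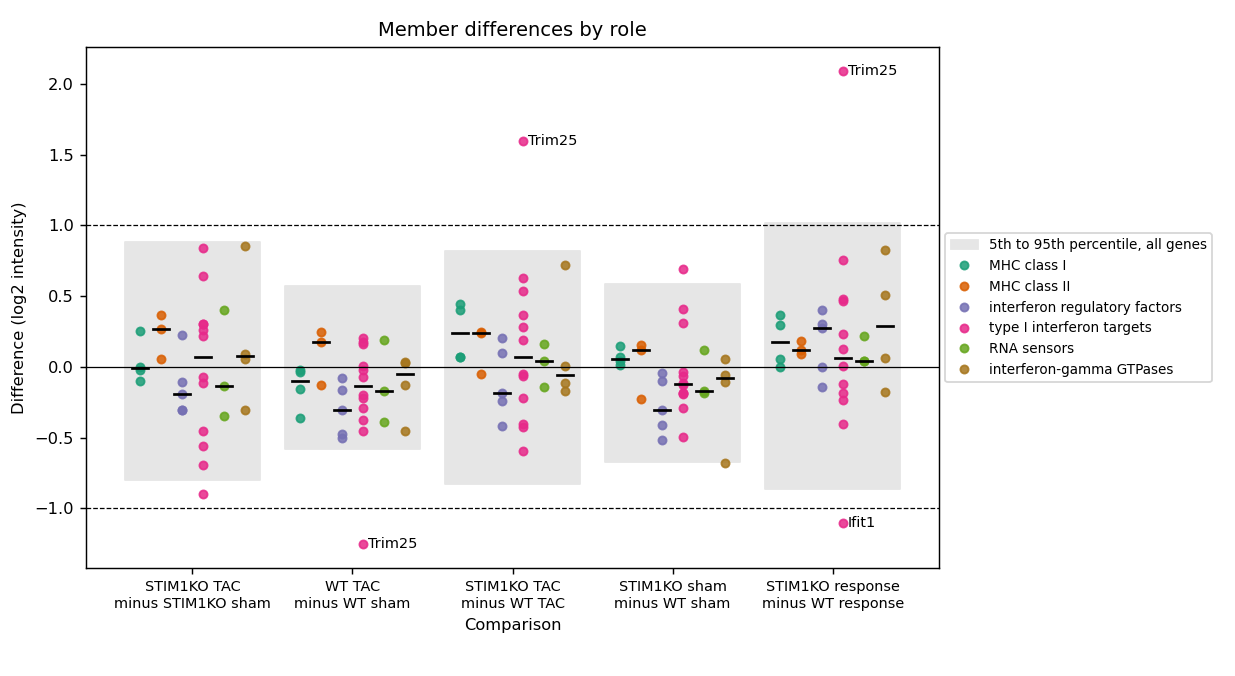
Log2 differences of the 31 genes in the 5 comparisons, coloured by role, with a black bar at each role's median, dashed lines at 2-fold and grey boxes from the 5th to the 95th percentile of all 14039 genes. Most points lie within the grey boxes, and Trim25 and Ifit1 are the points beyond 2-fold.

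The set as a whole shifted little. In the STIM1KO response the median over the 31 genes was -0.0003, with 15 above 0 and 16 below, and turned to 0.05 with the values as deposited. In the WT response it was -0.13, with 9 above and 22 below, against -0.02 over all genes, of which 47.3% were above 0. In STIM1KO TAC against WT TAC it was 0.07, with 18 above and 13 below, and in STIM1KO sham against WT sham -0.10, with 11 above and 20 below. The medians over all genes were 0.03 between the TAC arrays and -0.01 between the sham arrays. The WT response and the comparison of the sham arrays share WT sham. In the difference of responses 22 were above 0, with a median of 0.12, against 50.3% of all genes, and the median was 0.06 with median centring.

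The WT and STIM1KO responses use different arrays. Of the 31 genes, 14 were below 0 in both (45.2%), against 29.8% of all genes, and 7 were above 0 in both (22.6%), against 28.1%. The 14 include 4 of the 5 transcription factors. They also include Tap1, at -0.0003 in STIM1KO, and Tapbp, at -0.02 in both genotypes, whose signs there carry little. With the values as deposited, Tap1 was above 0 in STIM1KO and Tapbp in both. A further 8 were above 0 in STIM1KO and below 0 in WT (25.8%), against 22.7% of all genes, and 2, Ifit1 and Ifit3, were the other way round (6.45%), against 19.2%. Ifit3 lay at 0.0047 in WT, so its sign there carries little.

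**Figure D3:**
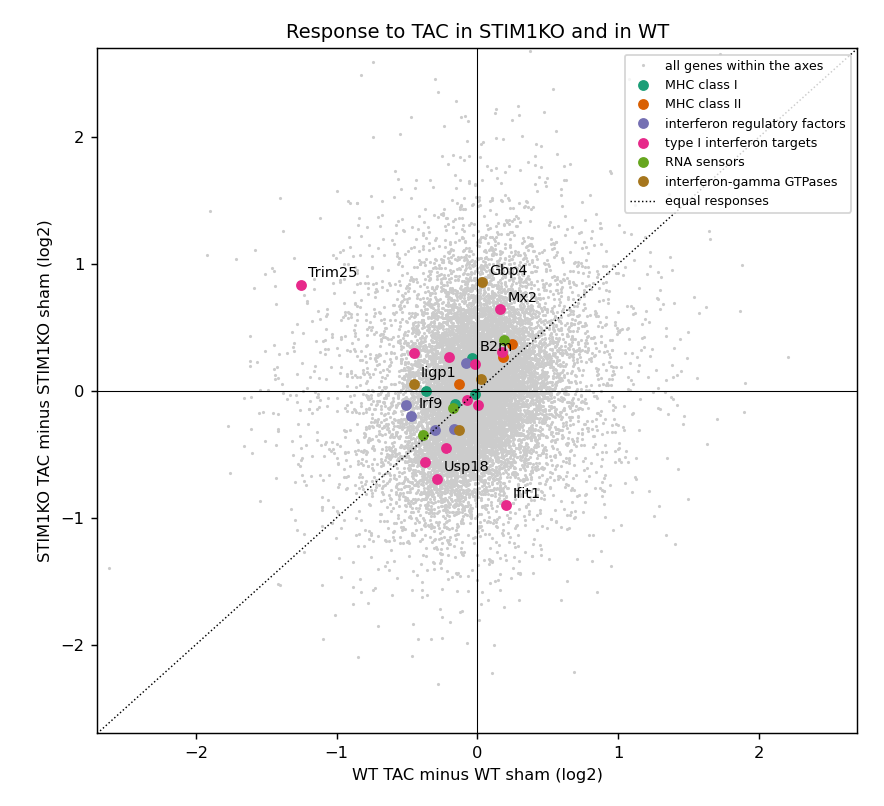
Response to TAC in STIM1KO (vertical axis) against that in WT (horizontal axis), log2, with all genes in grey and the 31 genes coloured by role. Trim25 lies at 0.84 in STIM1KO and -1.25 in WT, Ifit1 at -0.90 in STIM1KO and 0.20 in WT, and Gbp4 at 0.86 in STIM1KO and 0.03 in WT.

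WT TAC was the highest array for 0 of the 31 genes, where it was for 17.3% of all genes. This count was 2 with median centring, with 18.1% of all genes, and 2 with the values as deposited, with 22.2%. WT sham was the highest for 12 (38.7%), against 26.1% of all genes, and the lowest for 4 (12.9%), against 25.1%. With median centring it was the highest for 11 and the lowest for 6, against 24.8% and 25.7% of all genes. With the values as deposited these counts were 12 and 6, against 25.3% and 25.4%. STIM1KO TAC was the highest for 12 and the lowest for 10, shares of 38.7% and 32.3%, against 36.8% and 33.6% of all genes.

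**Figure D4:**
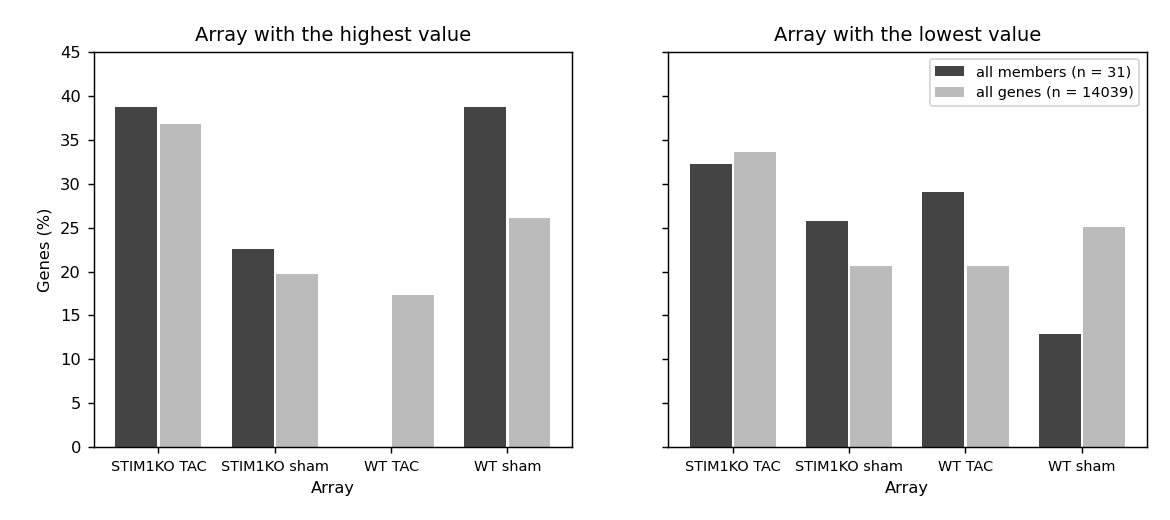
Share of genes (%) with their highest value (left) or lowest value (right) on each array, for the 31 members in dark bars and all 14039 genes in light bars. No member had its highest value on WT TAC, against 17.3% of all genes.

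Members with the response element core had a higher median than those without it in both responses, but not between the TAC arrays. The 11 with it had a median of 0.09 in the STIM1KO response and -0.04 in the WT response. The 11 without it had -0.07 in the STIM1KO response and -0.22 in the WT response. Between the TAC arrays the medians were 0.01 with the core and 0.07 without it, and between the sham arrays -0.06 and -0.07. The 9 members without a promoter entry are left out of this comparison.

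A wider list held 115 pathway genes outside the members, 92 of them measured on every array, and gave few calls. At 2-fold it had 1 gene (1.09%) in the STIM1KO response, 1 (1.09%) in the WT response, 3 (3.26%) between the TAC arrays, 1 (1.09%) between the sham arrays and 4 (4.35%) in the difference of responses, each below the share of all genes. The 3 between the TAC arrays were Ifnar1, Sting1 and Ifnb1. Ifnar1, a chain of the type I interferon receptor, was at 17.1 on STIM1KO TAC, 30.8 on STIM1KO sham, 35.5 on WT TAC and 44.0 on WT sham. It was lower in STIM1KO after both operations, with differences of -1.05 after TAC and -0.52 after sham. Sting1, the adaptor of cytosolic DNA sensing, was at 19.3 on STIM1KO TAC, 23.4 on STIM1KO sham, 39.8 on WT TAC and 36.5 on WT sham. Both STIM1KO arrays lay below both WT arrays in each of these genes. Ifnb1, which encodes interferon beta, was among the dimmest probes, between 1.31 and 2.72, as was Herc6, a ubiquitin ligase for ISG15 in mice, the gene called between the sham arrays, between 1.39 and 3.32. The difference of responses called Herc6 (1.27) and the lymphoid factor Irf4 (1.04) as higher, and Ifnb1 (-1.13) and the JAK phosphatase Ptpn2 (-1.06) as lower. Irf4 was dim too, between 3.82 and 7.43.

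In the STIM1KO response Oasl1, a repressor of Irf7 translation, was at 9.56 on STIM1KO TAC and 21.0 on STIM1KO sham (-1.14), against 9.44 on WT TAC and 15.9 on WT sham (-0.76). In the WT response Nlrc5, the transactivator of class I genes, differed by 1.32 at the low intensities of 6.23 on WT TAC and 2.49 on WT sham. Of 14 other interferon-gamma targets with a value, 9 were above 0 in the STIM1KO response with a median of 0.16, led by Ido1 (0.95) and Gvin1 (0.83). Ido1 was a dim probe, at 4.86 on STIM1KO TAC and 2.52 on STIM1KO sham. Of 7 other class II processing genes, 5 were above 0 with a median of 0.49, led by Ifi30 (0.89), a lysosomal thiol reductase, and Ctss (0.79), the protease that trims the invariant chain. In the WT response the medians were -0.03 for the interferon-gamma targets and -0.04 for the class II processing genes. Of 26 other type I interferon targets, 17 were above 0 in the STIM1KO response, with a median of 0.14, and 8 in the WT response, with a median of -0.11. Of 14 receptor and JAK-STAT genes, 5 were above 0 in the STIM1KO response, with a median of -0.28, and 6 in the WT response, with a median of -0.07. Ctss is also one of the macrophage markers above.

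Of the series as a whole, 19607 of 23473 probes had a value on all 4 arrays, and each array on its own had a value for 21115 to 21782. Stim1 itself was at 13.8 on STIM1KO TAC, 20.7 on STIM1KO sham, 33.9 on WT TAC and 41.6 on WT sham, so its probe was lower but not absent in STIM1KO, and whether the probe lies in the altered stretch is unknown. All-gene differences were wider where the STIM1KO TAC array took part, with an SD of 0.52 in the STIM1KO response and 0.51 between the TAC arrays, against 0.36 in the WT response and 0.40 between the sham arrays.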

How the data were processed

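The authors deposited 1 linear intensity per probe for each of 4 single-channel arrays. Per the labels' protocols, amplified total RNA carried amino allyl groups to which Cy5 was coupled. How background was corrected and why some cells are empty was not given in the sources. The deposited intensities had a median of about 20 on every array. Their array medians over shared probes spread over 0.101 on the log2 scale, and quantile normalization of log2 values over the 19607 probes with a value on all arrays was used. Probes were named through the platform's annotation table, and 3947 symbols were updated through synonyms in a gene table of GRCm38.p6. The probe with the highest mean stood for a gene, and no filter on dim probes was set. Alternatives were median centring, the values as deposited, filters at the median and 75th percentile level, an offset before log2, the mean over probes and thresholds of 1.5-fold and 3-fold. Computations used Python 3.11.15 with numpy 2.4.6 and pandas 2.3.3, and were tested on simulated data. With 1 array per group there is no p-value, error or interval, and precision is limited by having so few arrays. Members, lists and comparisons were chosen with earlier results of these data known; members could all be named, pathway genes outside them when at 2-fold or as the largest of their list.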

Additional observations from a re-analysis of the deposited data

Results flagged for a closer look

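Trim25 moved opposite ways after TAC, at 0.84 in STIM1KO and -1.25 in WT, a difference of responses of 2.09. Ifit1 did so the other way round, at -0.90 in STIM1KO and 0.20 in WT, a difference of -1.10. The Ifit1 difference was under 2-fold with the values as deposited (-0.999) and with the offset (-0.62), and that of Trim25 was 1.82 with the offset. Each response is 1 array against 1 array, and neither difference was tested.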

How the results depend on the processing

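No paired analysis was possible because each group is 1 array. Of 155 pairs of member and comparison, 15 changed sign with median centring or the values as deposited, none of them above 0.09 in size before. A median was taken as moved when it changed by over 0.1. The count at 2-fold went to 0 in the WT response, the difference of responses and the TAC comparison with the 75th percentile filter, which leaves 8 members, and to 0 in the WT response at 3-fold. In the difference of responses it was 1, Trim25 alone, with the values as deposited, the median-level filter, the offset and at 3-fold. At 1.5-fold it was 5 in the STIM1KO response, 4 between the TAC arrays, 4 in the difference of responses and 2 between the sham arrays. With median centring, class II was at 0.17 in the STIM1KO response and 0.13 between the TAC arrays, and the GTPases at 0.18 in the difference of responses. With the values as deposited, class II was at 0.14 between the TAC arrays and the RNA sensors at -0.011 in the STIM1KO response. The median-level filter, which leaves 21 members, gave -0.47 for the transcription factors and -0.24 for type I targets in the WT response, and 0.030 for the sensors in the STIM1KO response. Between the TAC arrays it gave 0.072 for class I and -0.060 for type I targets, and in the difference of responses 0.057 for class I. The 75th percentile filter leaves 1 to 3 genes in 4 of the roles. It gave 0.026 for class II and -0.45 for the GTPases in the WT response. In the STIM1KO response it gave 0.14 for all members, 0.12 for class I, 0.16 for class II and 0.21 for type I targets. Between the sham arrays it gave -0.035 for class II and -0.68 for the GTPases. Between the TAC arrays it gave 0.098 for class II, -0.054 for type I targets and -0.17 for the GTPases, and in the difference of responses 0.23 for type I targets and 0.51 for the GTPases. Chosen after seeing the data, leaving out Trim25 gave type I targets -0.069 in the STIM1KO response and -0.054 between the TAC arrays; the dimmer Gbp4 probe moved no median by over 0.1.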
